A study of Mus musculus with 8 samples.

Results

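The Kruppel-like factors (KLF) are described here in mouse embryonic stem cells (ESC) and in hematopoietic stem cells (HSC), each with and without the X-linked zinc finger gene Zfx. The members are 9 of the 18193 genes on the array, Klf2, Klf3, Klf4, Klf5, Klf6, Klf7, Klf9, Klf10 and Klf13. They were found as the probe sets whose platform gene symbol is one of these names, 33 of 45101 probe sets. Klf3 and Klf9 have 7 probe sets each, Klf6 has 5, Klf7 has 4, Klf5 and Klf13 have 3 each, Klf4 has 2, and Klf2 and Klf10 have 1 each. A gene is described first through its leading probe set, the one that was brightest by its mean log2 value.

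KLF proteins bind GC-rich and CACCC sequences through zinc fingers at their C-terminal end, and they differ mainly in the regulatory regions in front of these fingers. Klf2, Klf4 and Klf5 are known as activators that help to keep ESC in the naive pluripotent state. Klf6 and Klf7 form a pair of closely related, broadly expressed factors. Klf9, Klf10 and Klf13 carry a domain that recruits the SIN3A corepressor. Klf3, in blood a target of the erythroid factor Klf1, represses through the CtBP corepressors.

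The study measured RNA on Affymetrix Mouse Genome 430 2.0 arrays in 4 groups of 2 arrays, to ask how gene expression depends on Zfx in the 2 kinds of stem cell. ESC were Zfx-null clones and control Zfx-flox clones, both grown on gelatin without feeders in medium that held 15% Knockout SR and LIF, the cytokine that maintains mouse ESC. HSC were flow-sorted as Lin- Sca-1+ c-Kit+ cells, a gate that also holds multipotent progenitors, from marrow pools of 4 to 6 male mice that carried the floxed Zfx allele. Zfx-cko mice also carried Mx1-Cre, a Cre recombinase under an interferon-inducible promoter, and their Zfx-flox littermates were Cre-. Marrow was taken 4 days after the last injection of pI·C, the inducer of Mx1-Cre. The sources used here do not give the age of the mice or the number of clones behind each ESC array. The labels state duplicate hybridisation, so both arrays of a group may come from 1 RNA sample, and p-values then cover just the array spread, perhaps a technical one.

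Values are the deposited probe set intensities on a linear scale. Array medians ran from 38.4 to 66.5, and Pearson correlations of log2 values within a group ran from 0.980 to 0.987. Of 6 pluripotent cell markers, Pou5f1, Nanog, Sox2 and Utf1 were below 14.2, the 25th percentile of all values, on every HSC array. Zfp42 read 6.00 to 26.3 on the HSC arrays and Dppa5a read 64.6 to 82.6. The Zfx probe set 1422249_s_at, which also matches the pseudogene Zfa-ps, read 285 and 298 in ESC Zfx-flox, against 1.32 and 0.878 in Zfx-null. Of the 6 other Zfx probe sets, 5 were higher in Zfx-null ESC, by 0.79 to 1.65 on the log2 scale, and which of them lie in the deleted part was not analysed here. On HSC arrays of both genotypes 1422249_s_at read at most 7.22, no Zfx probe set passed as lower in Zfx-cko and 1425972_a_at was higher there by 0.72, so the HSC groups rest on their labels. HSC RNA went through 1 more amplification round than ESC RNA, and the log2 ratio of 5′ to 3′ Gapdh control signal was 0.377 to 0.437 in ESC but -4.68 to -4.18 in HSC. Cell type and amplification cannot be told apart, so ESC and HSC levels were not tested against each other, and only the change with genotype was compared.

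The members differed in their response. Klf6 and Klf7 were higher in Zfx-null ESC and in Zfx-cko HSC than in the controls, and Klf9 was lower in both. Klf2 and Klf4 were lower in Zfx-null ESC and higher in Zfx-cko HSC. Klf3 was lower in Zfx-cko HSC, Klf10 was higher there, and Klf13 was higher in Zfx-null ESC. No Klf5 probe set passed the test.

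Tests used limma on log2(value + 14.2) over all probe sets, with Benjamini-Hochberg adjustment, and a change passed at an adjusted p under 0.05. In ESC, 29 member probe sets had enough signal to be tested, and 16 passed, 10 higher and 6 lower. Over all probe sets, 12.1% were higher and 12.6% lower. The members' count is 55.2% of the tested members, against 24.7% of all 27022 probe sets tested. The members' median change was -0.16, against -0.05 over all tested probe sets. The members' count fell with any 1 of the 8 arrays left out, and fell most without ESC Zfx-flox replicate 1 or either ESC Zfx-null array. The matching loss over all probe sets is not given here, so a general loss of calls cannot be told apart. In HSC, 17 of 28 tested member probe sets passed, 10 higher and 7 lower, where 21.7% of all were higher and 16% lower. The share was 60.7%, against 37.7% of all 27022 probe sets tested, and the members' median was 0.14 against 0.06. The members are a chosen list and several probe sets share a gene, so these shares are descriptions.

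**Figure D1:**
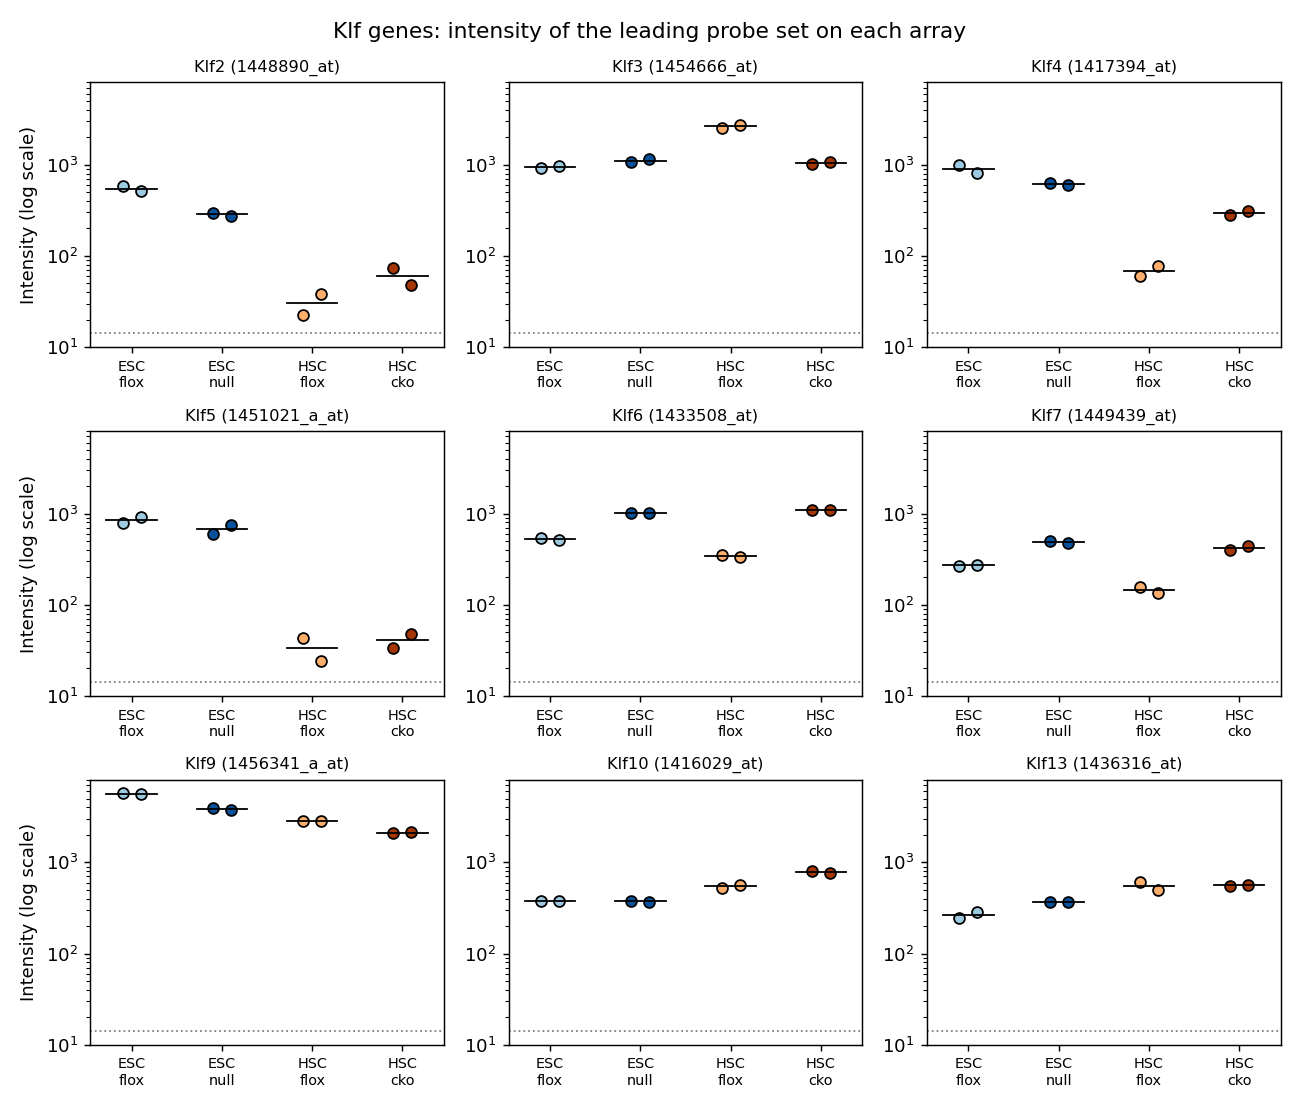
Deposited intensity (log scale) of the leading probe set of each Klf gene on each of the 8 arrays, with a bar at the mean of each group of 2 arrays and a dotted line at 14.2, the pseudocount. Klf6 and Klf7 stand higher and Klf9 lower in both Zfx-null ESC and Zfx-cko HSC, and Klf2 and Klf4 move in opposite directions in ESC and HSC.

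The activators of the naive ESC state, Klf2, Klf4 and Klf5, read 422 to 983 in control ESC on their tested probe sets and 6.25 to 78.2 in control HSC. Klf2, which has a role in endothelial cells and in T cell quiescence as well as in ESC, read 578 and 519 in ESC Zfx-flox, against 294 and 276 in Zfx-null. In HSC it read 22.7 and 38.2 in Zfx-flox, against 73.0 and 48.1 in Zfx-cko. The groups did not overlap in either cell type. Klf2 fell by 0.91 ± 0.21 on the log2 scale in ESC (SE, n = 2 arrays per group, limma adjusted p = 0.0139) and rose by 0.74 ± 0.21 in HSC (limma adjusted p = 0.0219). The HSC rise was not called when each cell type was fitted alone (limma adjusted p = 0.0675). The ESC call was lost with any 1 ESC array left out, with limma adjusted p from 0.0502 to 0.0857 and changes from -0.99 to -0.83. The HSC change was 0.49 without HSC Zfx-flox replicate 1 and 0.50 without HSC Zfx-cko replicate 1, and passed in neither case (limma adjusted p = 0.134 and 0.146).

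Klf4, a reprogramming factor that acts downstream of LIF and also promotes monocyte differentiation, had the widest gap in response between the cell types among the members. Its leading probe set 1417394_at read 983 and 808 in ESC Zfx-flox, 622 and 601 in Zfx-null, 59.9 and 78.2 in HSC Zfx-flox, against 281 and 308 in Zfx-cko. All Zfx-null values lay under all ESC controls, and all Zfx-cko values lay above all HSC controls. The change was -0.53 ± 0.14 in ESC (limma adjusted p = 0.0206) and 1.90 ± 0.14 in HSC (limma adjusted p = 1.35e-05), a 3.73-fold rise on the scale of value + 14.2. The ESC change was -0.39 without ESC Zfx-flox replicate 1 and was then not called (limma adjusted p = 0.132), nor was it without either Zfx-null replicate (0.0697 and 0.0891). The other Klf4 probe set, 1417395_at, read 428 and 422 against 360 and 369 in ESC, where its change of -0.21 ± 0.30 did not pass. In HSC it read 6.25 and 31.3 in Zfx-flox, against 61.4 and 61.2 in Zfx-cko. It rose by 1.31 ± 0.30 (limma adjusted p = 0.00833), a value that was 0.73 without HSC Zfx-flox replicate 1 and 2.13 with no pseudocount.

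Klf5, needed for the inner cell mass and for ESC proliferation, read 786 and 924 in ESC Zfx-flox, against 603 and 741 in Zfx-null on 1451021_a_at. All Zfx-null values were under the controls, but the change of -0.34 (95% interval -0.84 to 0.15) did not pass. On 1451739_at it read 461 and 442 against 365 and 315, a change of -0.40 (-0.71 to -0.08, limma adjusted p = 0.069). This value did pass when each cell type was fitted alone (limma adjusted p = 0.0425). In HSC both probe sets read 24.0 to 48.1 on every array, with overlapping genotypes and intervals of -0.28 to 0.71 and -0.32 to 0.32. The remaining probe set, 1430255_at, read 1.27 to 32.7 and was not tested.

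The promoter sequences of Klf6, called in the same direction in both cell types, and of Klf2 and Klf4, called in opposite directions, are set side by side. Klf3 1454666_at was also called in opposite directions and Klf9 in the same direction, and their sequences are not shown. Each sequence shown is the 250 bases before the RefSeq gene start on GRCm38.p6, read 5′ to 3′ along the gene's strand. Capitals mark AGGCCT, the core of the motif known for ZFX, which reads the same on both strands, and GGGCGG or its reverse complement CCGCCC, the GC box bound by KLF and SP proteins. They lie at chr8:72318812-72319061 (+) for Klf2, chr4:55532476-55532725 (-) for Klf4 and chr13:5861239-5861488 (+) for Klf6.
Klf2: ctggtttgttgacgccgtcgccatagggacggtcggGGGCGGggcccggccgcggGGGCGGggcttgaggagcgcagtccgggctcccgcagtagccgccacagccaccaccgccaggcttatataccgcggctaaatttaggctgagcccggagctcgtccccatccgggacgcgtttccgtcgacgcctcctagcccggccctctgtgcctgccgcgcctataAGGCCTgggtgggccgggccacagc
Klf4: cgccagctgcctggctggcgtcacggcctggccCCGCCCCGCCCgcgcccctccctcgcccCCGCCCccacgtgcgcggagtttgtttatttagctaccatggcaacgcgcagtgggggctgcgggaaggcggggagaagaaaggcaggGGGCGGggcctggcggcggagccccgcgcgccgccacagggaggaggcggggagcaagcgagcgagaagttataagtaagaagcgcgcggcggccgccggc
Klf6: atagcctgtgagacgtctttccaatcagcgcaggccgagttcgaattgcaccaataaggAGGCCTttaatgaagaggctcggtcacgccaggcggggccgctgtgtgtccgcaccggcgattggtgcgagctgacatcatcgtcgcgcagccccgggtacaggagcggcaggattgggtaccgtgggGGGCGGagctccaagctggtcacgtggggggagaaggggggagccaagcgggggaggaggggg
AGGCCT was found in 2 of the 7 members with an entry, Klf2 and Klf6, and in 8.7% of all 32851 promoter entries of this length. The Klf7 entry belongs to a start inside the gene's full RefSeq span, so its sequence is not shown, but it is counted among the 7. In Klf2 AGGCCT starts 25 bases before the gene start and in Klf6 191 bases before it. The GC box was found in 6 of the 7, against 32.7% of all promoters, with 4 matches in Klf4, 6 in Klf3 and 0 in Klf9. The members' promoters are 59.2% (the Klf7 entry) to 78.4% G and C, against a median of 52.4% over all promoters. The matches are letters in a window and not measured binding sites. Klf5 and Klf10 were not matched.

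Klf6 and Klf7 were higher in Zfx-null ESC and in Zfx-cko HSC. Klf6, which is induced by growth and injury signals and activates the cell cycle inhibitor Cdkn1a, read 535 and 513 in ESC Zfx-flox, against 1017 and 1025 in Zfx-null on 1433508_at. The HSC values were 352 and 331 in Zfx-flox, against 1081 and 1088 in Zfx-cko. The arrays of a group differed by far less than the genotypes did. It rose by 0.94 ± 0.07 in ESC (limma adjusted p = 6.74e-05) and by 1.63 ± 0.07 in HSC (limma adjusted p = 1.61e-06), or 1.92-fold and 3.09-fold on the scale of value + 14.2.

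The other Klf6 probe sets did not all follow. On 1447448_s_at Klf6 read 202 and 149 against 329 and 292 in ESC, and 132 and 175 against 525 and 511 in HSC. It rose by 0.78 ± 0.17 and 1.68 ± 0.17 (limma adjusted p = 0.00896 and 7.74e-05), with the ESC call lost without ESC Zfx-flox replicate 2 or Zfx-null replicate 1 (limma adjusted p = 0.0547 and 0.0583). On 1459718_x_at it rose by 1.05 ± 0.18 in ESC, from 45.9 ± 2.7 to 111 ± 28 (mean ± SD, n = 2), and by 1.25 ± 0.18 in HSC, from 92.0 ± 2.9 to 238 ± 2.2. By Affymetrix naming, such s and x probe sets may also detect other transcripts. On 1427742_a_at, which detects alternative transcripts of the gene, it read 241 and 255 against 288 and 277 in ESC, and 33.0 to 41.0 on all HSC arrays. Neither change passed there, and the 95% intervals were -0.17 to 0.52 and -0.24 to 0.45. On 1418280_at Klf6 read 213 and 234 against 408 and 396 in ESC, a rise of 0.81 ± 0.18 (limma adjusted p = 0.0105), which was not called without ESC Zfx-flox replicate 1 or without either Zfx-null replicate (0.0536 to 0.0675). The same probe set read 14.5 to 26.5 in HSC and was not tested there. Which exons the probe sets cover was not analysed here.

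Klf7, a factor of neuronal differentiation that also affects blood progenitors and T cells, read 268 and 272 in ESC Zfx-flox, against 504 and 475 in Zfx-null on 1449439_at. HSC arrays read 156 and 136 in Zfx-flox, against 393 and 437 in Zfx-cko. It rose by 0.82 ± 0.11 in ESC (limma adjusted p = 0.000855) and by 1.42 ± 0.11 in HSC (limma adjusted p = 1.75e-05). On 1419356_at it read 145 and 154 against 278 and 259 in ESC, and 115 and 97.5 against 223 and 204 in HSC. These are rises of 0.79 ± 0.13 and 0.92 ± 0.13. On 1419354_at it read 222 and 276 against 392 and 471 in ESC, and 85.5 and 81.4 against 224 and 163 in HSC. It rose by 0.76 ± 0.17 in ESC and 1.08 ± 0.17 in HSC, and the ESC call was lost when ESC Zfx-flox replicate 1 or ESC Zfx-null replicate 2 was left out (limma adjusted p = 0.0831 in each). On 1419355_at the Zfx-null arrays read 405 and 208, the Zfx-flox arrays 160 and 206, and the change of 0.64 ± 0.29 did not pass. Without Zfx-null replicate 2 it was 1.10 and passed (limma adjusted p = 0.0215). In HSC this probe set read 85.8 and 58.7 against 97.4 and 113, and did not pass either.

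Of the 26 member probe sets tested in both cell types, 6 were higher in both, 3 of Klf6 and 3 of Klf7. Over all 22829 probe sets tested in both, 5.22% were higher in both. Another 4, all of Klf9, were lower in both, against 4.59% of all. The probe sets of Klf2 and of Klf4 (1417394_at) were lower in ESC and higher in HSC, against 2.98% of all, and 1 of Klf3 was higher in ESC and lower in HSC, against 2.01%. Past the threshold in ESC alone were 2 probe sets, in HSC alone 4 and in neither 7, though a call in a single cell type does not show a difference between them. Shares over all probe sets were not computed for these last patterns, so their counts are no result about the members.

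**Figure D2:**
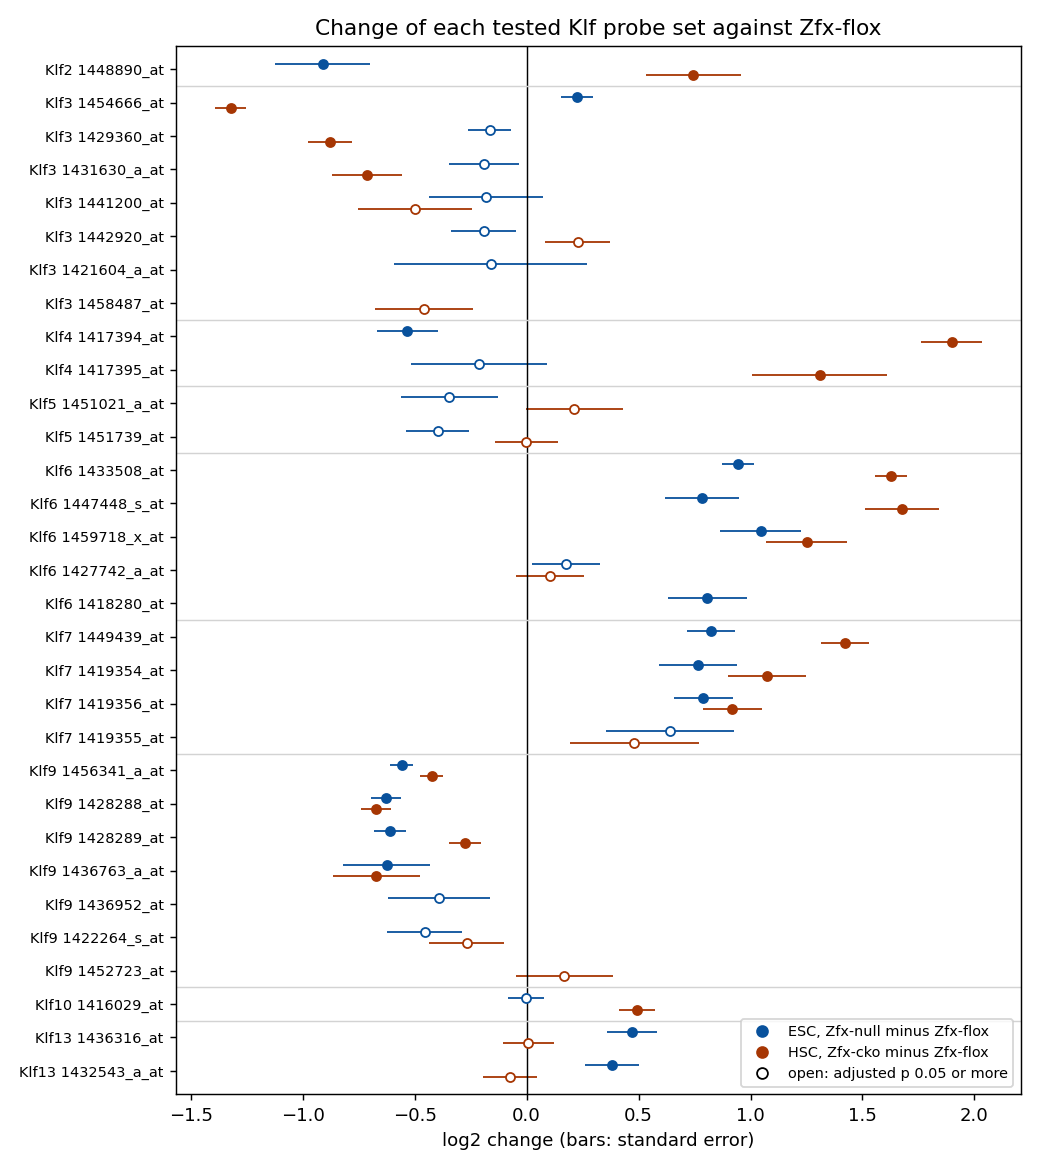
Log2 change (Zfx-null minus Zfx-flox in ESC, blue, and Zfx-cko minus Zfx-flox in HSC, red-brown) of each tested member probe set, on the log2(value + 14.2) scale. Points are limma estimates from 2 arrays per group, bars are standard errors and open points did not pass; the called Klf6 and Klf7 points lie right of 0 and the called Klf9 points left of 0 in both cell types.

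Among the members that recruit SIN3A, Klf9 was lower in both cell types, Klf10 was higher in HSC and Klf13 was higher in ESC. Klf9, a repressor induced by glucocorticoid and thyroid hormone, read 5692 and 5654 in ESC Zfx-flox, against 3911 and 3791 in Zfx-null on 1456341_a_at. The HSC arrays read 2819 and 2834 in Zfx-flox, against 2080 and 2129 in Zfx-cko. The genotypes were well apart in both cell types. It fell by 0.56 ± 0.05 in ESC (limma adjusted p = 0.000155) and by 0.42 ± 0.05 in HSC (limma adjusted p = 0.000244). On 1428288_at it read 2989 and 3220 against 1976 and 2031 in ESC, and 2880 and 2765 against 1839 and 1695 in HSC. It fell there by 0.63 ± 0.07 and by 0.67 ± 0.07 (limma adjusted p = 0.000304 and 7.72e-05).

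On 1428289_at Klf9 read 2721 and 2771 against 1840 and 1750 in ESC, and 1937 and 2190 against 1652 and 1750 in HSC. It fell by 0.61 ± 0.07 in ESC and by 0.27 ± 0.07 in HSC (limma adjusted p = 0.000539 and 0.0157). The HSC call was lost without HSC Zfx-cko replicate 1 (-0.23, limma adjusted p = 0.105) or HSC Zfx-flox replicate 2 (-0.19, 0.126). On 1436763_a_at it read 845 and 1171 against 602 and 681 in ESC, a fall of 0.62 ± 0.19 (limma adjusted p = 0.0441). Without ESC Zfx-flox replicate 2 this was -0.39, and it was not called then or without either Zfx-null replicate (limma adjusted p = 0.0933 to 0.261). In HSC this probe set read 58.8 and 77.9 against 43.8 and 31.5, a fall of 0.67 ± 0.19 (limma adjusted p = 0.0229), which was -0.50 and not called without HSC Zfx-flox replicate 2 (limma adjusted p = 0.142) or Zfx-cko replicate 2 (0.141). The 3 other Klf9 probe sets passed in neither cell type. Of these, 1436952_at read 584 and 543 against 425 and 427 in ESC, and 11.2 to 34.8 in HSC, where it was not tested. On 1422264_s_at it read 311 and 329 against 251 and 210 in ESC, and 54.8 and 44.0 against 34.9 and 42.2 in HSC, a change of -0.27 (95% interval -0.65 to 0.11). Their ESC changes of -0.39 and -0.45 had the sign of the leading probe set, and passed when each cell type was fitted alone (limma adjusted p = 0.0248 and 0.0451). The third, 1452723_at, read 27.3 to 52.5 over all arrays and was tested in HSC alone. When each cell type was fitted alone, 1436763_a_at lost its HSC call (limma adjusted p = 0.051).

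Klf10, an early response gene of TGF-beta, had 1 probe set, 1416029_at. It read 373 on both ESC Zfx-flox arrays and 377 and 368 in Zfx-null, so the genotypes overlapped. The ESC change was -0.00 ± 0.08, with a 95% interval of -0.19 to 0.18. In HSC it read 525 and 569 in Zfx-flox, against 795 and 756 in Zfx-cko, and it rose by 0.49 ± 0.08 (limma adjusted p = 0.00134).

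Klf13, an activator of the chemokine gene Ccl5 in T cells and a repressor elsewhere, read 247 and 282 in ESC Zfx-flox, against 372 and 371 in Zfx-null on 1436316_at. In HSC it read 614 and 501 in Zfx-flox, against 552 and 564 in Zfx-cko, so the HSC genotypes overlapped. It rose by 0.47 ± 0.11 in ESC (limma adjusted p = 0.0159), while the HSC change was 0.01 with a 95% interval of -0.25 to 0.26. On 1432543_a_at it read 232 and 209 against 302 and 281 in ESC, a rise of 0.38 ± 0.12 (limma adjusted p = 0.047), and 171 to 197 on all HSC arrays. Both ESC calls depended on single arrays. On 1436316_at the change was not called without ESC Zfx-flox replicate 1 (0.38, limma adjusted p = 0.0894), Zfx-null replicate 1 (0.0624) or Zfx-null replicate 2 (0.0601). On 1432543_a_at it was not called without any 1 of the 4 ESC arrays (0.31 to 0.45, limma adjusted p = 0.0743 to 0.19), and it was also lost without either Zfx-cko array or HSC Zfx-flox replicate 1 (limma adjusted p = 0.0506 to 0.0655). The third Klf13 probe set, 1456030_at, read 5.70 to 20.2 and was not tested.

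Klf3, the CtBP-dependent repressor, was lower in Zfx-cko HSC on 3 of its 6 probe sets tested there. On 1454666_at it read 2535 and 2746 in HSC Zfx-flox, against 1017 and 1077 in Zfx-cko, a fall of 1.32 ± 0.07 (limma adjusted p = 3.37e-06). In ESC the same probe set read 929 and 965 in Zfx-flox, against 1077 and 1145 in Zfx-null. That rise of 0.23 ± 0.07 passed narrowly (limma adjusted p = 0.0463) and was not called when any 1 of the 8 arrays was left out (limma adjusted p = 0.0589 to 0.181). On 1429360_at it read 466 and 450 in HSC Zfx-flox, against 225 and 262 in Zfx-cko, a fall of 0.88 ± 0.10 (limma adjusted p = 0.000145). In ESC it read 525 and 494 against 455 and 451, a change of -0.16 that did not pass. On 1431630_a_at the HSC values were 135 and 171 against 79.0 and 96.2, a fall of 0.71 ± 0.16 (limma adjusted p = 0.00648), lost without HSC Zfx-cko replicate 1 or HSC Zfx-flox replicate 2 (limma adjusted p = 0.0502 and 0.0532).

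The other Klf3 probe sets were dimmer and passed in neither cell type. In ESC, 1441200_at read 278 to 379, 1442920_at read 190 to 225 and 1421604_a_at read 258 to 353, with changes from -0.19 to -0.16. In HSC, 1441200_at read 82.4 and 48.3 against 31.4 and 52.2, and 1458487_at read 34.7 and 37.4 against 19.1 and 25.8. Their changes of -0.50 and -0.46 had the sign of the leading probe set. The exception in sign was 1442920_at, at 43.7 and 41.7 against 53.7 and 51.2, a change of 0.23 (95% interval -0.10 to 0.56). In ESC 1458487_at, at 27.2 to 45.9, was not tested, and in HSC 1421604_a_at, at 0.993 to 29.9, was not tested.

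The change with genotype was then compared between the cell types by an interaction term. Of 26 member probe sets, 10 passed, 8 with a higher and 2 with a lower value in HSC, or 38.5%, against 32.3% of all 22829 probe sets tested (17.8% higher and 14.5% lower). A share near the background is no result about the members as a set. With each array left out in turn, the count was lower for most of the arrays, and lowest without HSC Zfx-cko replicate 2. The differences past the threshold came from Klf2, Klf3, Klf4, Klf6, Klf7, Klf9 and Klf10. For Klf4 the HSC change exceeded the ESC change by 2.43 ± 0.19 on 1417394_at (limma adjusted p = 5.29e-05). On 1417395_at the excess was 1.52 ± 0.43 (limma adjusted p = 0.025), but 0.95 and still called without HSC Zfx-flox replicate 1. It was called without HSC Zfx-flox replicate 2 too, and with none of the 6 other arrays left out. The call was lost with no pseudocount (limma adjusted p = 0.0713), after quantile normalization over all arrays (0.0527) and without the variance trend (0.0625). For Klf2 the excess was 1.65 ± 0.30 (limma adjusted p = 0.00334).

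For Klf3 the HSC change lay under the ESC change by 1.55 ± 0.10 on 1454666_at (limma adjusted p = 2.41e-05) and by 0.71 ± 0.14 on 1429360_at (limma adjusted p = 0.00443). The 3 other Klf3 probe sets tested gave -0.52 (1431630_a_at), -0.32 (1441200_at) and 0.42 (1442920_at), and did not pass. Klf6 rose more in HSC on 1433508_at, by 0.68 ± 0.10 (limma adjusted p = 0.00127), but by only 0.34 after quantile normalization over all 8 arrays. On 1447448_s_at that excess was 0.89 ± 0.23 (limma adjusted p = 0.0183), but 0.58 and not called after the same normalization (limma adjusted p = 0.106), nor was it called without ESC Zfx-flox replicate 1, ESC Zfx-null replicate 2, either Zfx-cko array or HSC Zfx-flox replicate 1 (0.0507 to 0.0594). On 1459718_x_at and 1427742_a_at the differences of 0.20 and -0.07 did not pass (95% intervals -0.37 to 0.78 and -0.56 to 0.41). For Klf7 the excess was 0.60 ± 0.15 on 1449439_at (limma adjusted p = 0.0157), and 0.28 and not called after quantile normalization over all arrays (limma adjusted p = 0.188). It was not called without HSC Zfx-cko replicate 2 (0.53) or HSC Zfx-flox replicate 2 (0.51). The 3 other Klf7 probe sets did not pass, with differences of 0.31 on 1419354_at (95% interval -0.25 to 0.87), 0.13 on 1419356_at (-0.29 to 0.55) and -0.16 on 1419355_at (-1.08 to 0.76).

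For Klf10 the HSC change exceeded the ESC change by 0.50 ± 0.11 (limma adjusted p = 0.0107). For Klf9 the leading probe set gave 0.13, with a 95% interval of -0.03 to 0.30, and did not pass, nor did 3 others, at -0.05 (1428288_at), -0.05 (1436763_a_at) and 0.19 (1422264_s_at). The sole Klf9 probe set past the threshold, 1428289_at, gave 0.33 ± 0.10 (limma adjusted p = 0.0348), and it passed only with ESC Zfx-null replicate 1 or HSC Zfx-flox replicate 2 left out, of the 8 arrays in turn. For Klf13 the difference was -0.46 on both tested probe sets, with 95% intervals of -0.83 to -0.10 and -0.84 to -0.07, and did not pass (limma adjusted p = 0.0543 and 0.0702). It did pass after either quantile normalization (0.0205 to 0.0457). For Klf5 it was 0.56 (-0.14 to 1.26) and 0.40 (-0.05 to 0.84).

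**Figure D3:**
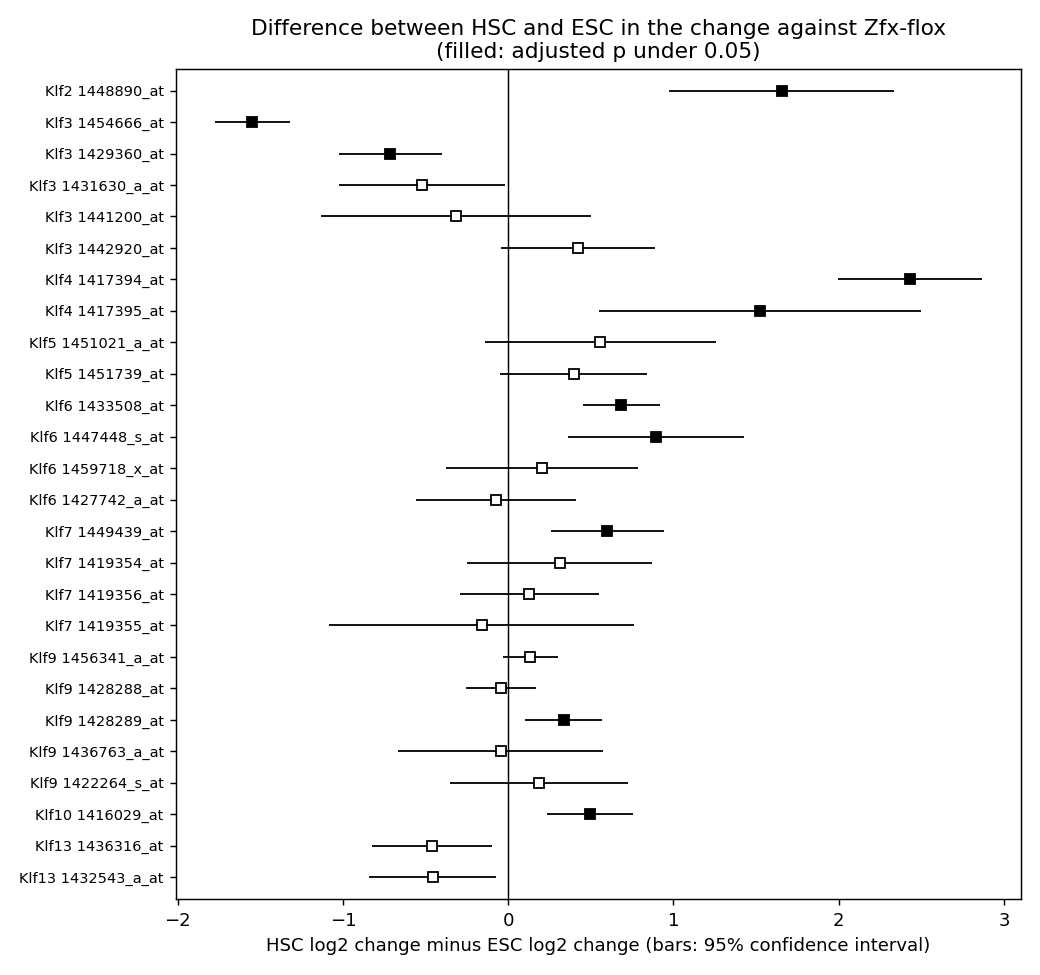
Difference between the cell types in the change with genotype (HSC log2 change minus ESC log2 change) for the 26 member probe sets tested in both, with 95% confidence intervals from limma and filled squares where the adjusted p was under 0.05. Klf4 1417394_at stands farthest to the right at 2.43 and Klf3 1454666_at farthest to the left at -1.55.

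In bulk samples, fewer cells of a type and less RNA per cell cannot be told apart, and markers of other cell states moved with the same genotypes. Over all leading probe sets tested, 22.4% were higher and 19.5% lower in HSC, and 15.2% higher and 14.2% lower in ESC. A marker count near these shares is no result about its cell type. In HSC all 8 tested markers of stem and progenitor cells rose, and their summed level went from 5044 to 5448 in Zfx-flox to 15997 to 16335 in Zfx-cko. All 4 tested erythroid markers, Klf1 among them, fell, from a sum of 9801 to 9822 to a sum of 3006 to 3111. All 3 megakaryocyte markers rose, from 1076 to 1167 to 3861 to 3906, as did 1 of 6 markers of granulocytes and monocytes. Of 3 tested B, T and NK cell markers 1 rose, Cd79b of the B cell receptor, which read 68.8 and 69.7 in Zfx-flox, against 209 and 223 in Zfx-cko (1.46 ± 0.24, limma adjusted p = 0.00132). The summed level of that list went from 244 to 303 in Zfx-flox to 379 to 422 in Zfx-cko. Cd3e and Cd4 of that list, and Itgam of the granulocyte and monocyte list, were below 14.2 on all HSC arrays. The log2 ratio of 5′ to 3′ Gapdh signal was also lower on both Zfx-cko arrays (-4.68 and -4.39) than on both Zfx-flox arrays (-4.18 and -4.25). Of the 6 interferon response genes tested in HSC, 2 rose, too few genes to set apart from the share over all. Mx1-Cre was in the Zfx-cko mice alone. In ESC, 6 of 8 fibroblast and stroma markers rose, from a sum of 17363 to 17674 to a sum of 29999.7 to 32729, and 3 of 6 pluripotent cell markers fell, from 25955 to 27576 to 17336 to 18476. Of 5 tested ESC markers each, 1 rose for primitive endoderm and 1 for trophectoderm, while 2 endothelial markers rose and 2 fell. The sums went from 685 to 695 to 1433 to 1478 for primitive endoderm, and from 3358 to 3410 to 4873 to 4996 for trophectoderm. In HSC, 3 of 5 fibroblast and stroma, 2 of 3 trophectoderm, 2 of 5 primitive endoderm and 2 of 4 endothelial markers rose, and none fell. The part of these changes in the Klf values was not tested.

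The genes that act with the members were grouped by role, each through its leading probe set. For reading the counts below, 29.4% of all such probe sets passed in ESC, 15.2% higher and 14.2% lower. In HSC 42% passed, 22.4% higher and 19.5% lower. The medians over all were -0.03 in ESC and 0.03 in HSC. The lists were drawn up with earlier results of these data known, so the counts are descriptions.

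Signals upstream of the members were examined first. Of the LIF and STAT3 pathway, which induces Klf4 in ESC, 3 of 10 genes rose and 2 fell in ESC, and 6 of 9 rose and 1 fell in HSC. The kinase gene Jak2 read 190 and 180 in ESC Zfx-flox, against 481 and 533 in Zfx-null, a rise of 1.39 ± 0.08 (limma adjusted p = 2.5e-05), while the adaptor gene Gab1 fell by 0.54 ± 0.07. In HSC Socs3, the feedback inhibitor of the pathway, read 63.7 and 81.6 in Zfx-flox, against 185 and 279 in Zfx-cko, a rise of 1.48 ± 0.21 (limma adjusted p = 0.000653). Gab1 rose by 1.06 ± 0.07 and Pim1, a STAT target, by 1.02 ± 0.10, and both had fallen in ESC. The kinase cascade from MEK5 to ERK5 and the MEF2 factors induces Klf2 and Klf4, and FOXO1 acts on Klf2. Of these genes 1 of 7 rose in ESC (Foxo1, 0.40 ± 0.11) and 5 of 7 rose in HSC, with none lower in either. The MEF2 gene Mef2c read 1047 and 1092 in HSC Zfx-flox, against 2816 and 3056 in Zfx-cko, a rise of 1.44 ± 0.17, and Mef2a rose by 0.97 ± 0.10.

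In the TGF-beta pathway, which induces Klf10, 9 of 13 tested genes rose in ESC, with a median change of 0.70, and 6 of 11 rose in HSC, with a median of 0.43. None was lower in either. Tgfbi, a secreted target of the pathway, read 828 and 660 in ESC Zfx-flox, against 2637 and 2642 in Zfx-null, a rise of 1.82 ± 0.11, and rose by 1.13 ± 0.11 in HSC. The ligand gene Tgfb2 rose by 1.31 ± 0.19 in ESC, and the receptor gene Tgfbr1 rose by 0.27 ± 0.08 in ESC and 0.85 ± 0.08 in HSC. Klf10 itself rose in HSC and did not pass in ESC. Genes on the glucocorticoid response list, set beside Klf9, rose in 3 of 8 cases in ESC and 5 of 9 in HSC, with none lower, where Klf9 fell. Among them Sgk1 rose by 0.33 ± 0.06 in ESC and 1.23 ± 0.06 in HSC, and Dusp1 by 1.43 ± 0.18 and 2.12 ± 0.18. The other listed gene higher in ESC was Nr3c1, the gene of the receptor itself, at 0.31 ± 0.09. Fkbp5, which responds directly to the receptor, read 936 and 1108 against 826 and 1105 in ESC and 577 and 688 against 686 and 677 in HSC, with overlapping genotypes.

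Immediate early genes are induced by the growth and stress signals that also induce Klf2, Klf4, Klf6 and Klf10. In ESC 9 of 18 rose, with a median of 0.60, and in HSC 13 of 15 rose, with a median of 1.23. None was lower in either. Fos read 542 and 598 in HSC Zfx-flox, against 4020 and 4923 in Zfx-cko, a rise of 2.94 ± 0.11 (limma adjusted p = 9.22e-07), and Dusp5 rose by 2.70 ± 0.15. In ESC Maff read 5.65 and 6.48 in Zfx-flox, against 156 and 130 in Zfx-null, a rise of 2.95 ± 0.26, and Fosl2 rose by 2.20 ± 0.11. Dusp1 is on this list and on the glucocorticoid list.

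Of the partners of KLF proteins, corepressors and coactivators passed in both directions, 1 higher and 5 lower of 14 in ESC, and 1 higher and 6 lower of 14 in HSC. Kat2b, an acetyltransferase, read 946 and 954 in ESC Zfx-flox, against 504 and 475 in Zfx-null, a fall of 0.94 ± 0.07. Ctbp2, a corepressor of Klf3, read 704 and 758 in HSC Zfx-flox, against 373 and 397 in Zfx-cko, a fall of 0.90 ± 0.08 (limma adjusted p = 5.32e-05), and Ctbp1 fell by 0.45 ± 0.06 there. Klf3 fell in the same arrays. Sin3a, the corepressor of Klf9, Klf10 and Klf13, read 1126 and 1063 against 973 and 903 in ESC and 324 and 346 against 367 and 387 in HSC, and passed in neither. The ubiquitin ligases that act on KLF proteins passed only upward, 2 of 9 in ESC (Vhl and Smurf2) and 3 of 9 in HSC (Fbxo32, Smurf1 and Vhl). Vhl rose by 0.50 ± 0.11 in ESC and 0.48 ± 0.11 in HSC.

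Targets were grouped last. Of 14 pluripotency genes that Klf2, Klf4 and Klf5 are known to bind in ESC, 9 fell in ESC and none rose, with a median of -0.86. Nr0b1, an orphan nuclear receptor of ESC, read 532 and 492 in Zfx-flox, against 196 and 181 in Zfx-null, a fall of 1.37 ± 0.18, and Lefty1, an inhibitor of Nodal signalling, fell by 1.14 ± 0.11. Pou5f1, the central pluripotency factor, read 3220 and 3466 in Zfx-flox, against 1361 and 2010 in Zfx-null, a fall of 1.01 ± 0.25. Sox2 read 3306 and 3149 against 2774 and 2618 and did not pass. In HSC 4 of these genes had enough signal, of which Mycn rose by 1.21 ± 0.07 and Lefty1 fell by 1.20 ± 0.11. Known KLF2 targets in blood and endothelial cells rose in 2 of 6 cases and fell in 1 in ESC, where Klf2 fell, and rose in 3 of 7 in HSC, where Klf2 rose. Thbd, the thrombomodulin gene, rose by 1.47 ± 0.16 in ESC, Nos3 fell by 0.66 ± 0.19 there, and Il7r, the receptor for interleukin 7, rose by 1.00 ± 0.24 in HSC.

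Cell cycle inhibitors and cyclins linked to KLF proteins rose in 4 of 7 cases and fell in 1 in ESC, and rose in 3 of 5 and fell in 1 in HSC. The lower gene was cyclin E1 in both, with Ccne1 at 3965 and 4552 in HSC Zfx-flox, against 711 and 708 in Zfx-cko, a fall of 2.56 ± 0.16, and a fall of 0.89 ± 0.16 in ESC. Cdkn1a, a cell cycle inhibitor gene on the KLF2 list that Klf4 and Klf6 also act on, read 989 and 836 against 1824 and 1573 in ESC and 226 and 223 against 473 and 528 in HSC. It rose by 0.89 ± 0.11 and 1.11 ± 0.11 (limma adjusted p = 0.000623 and 7.57e-05).

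**Figure D4:**
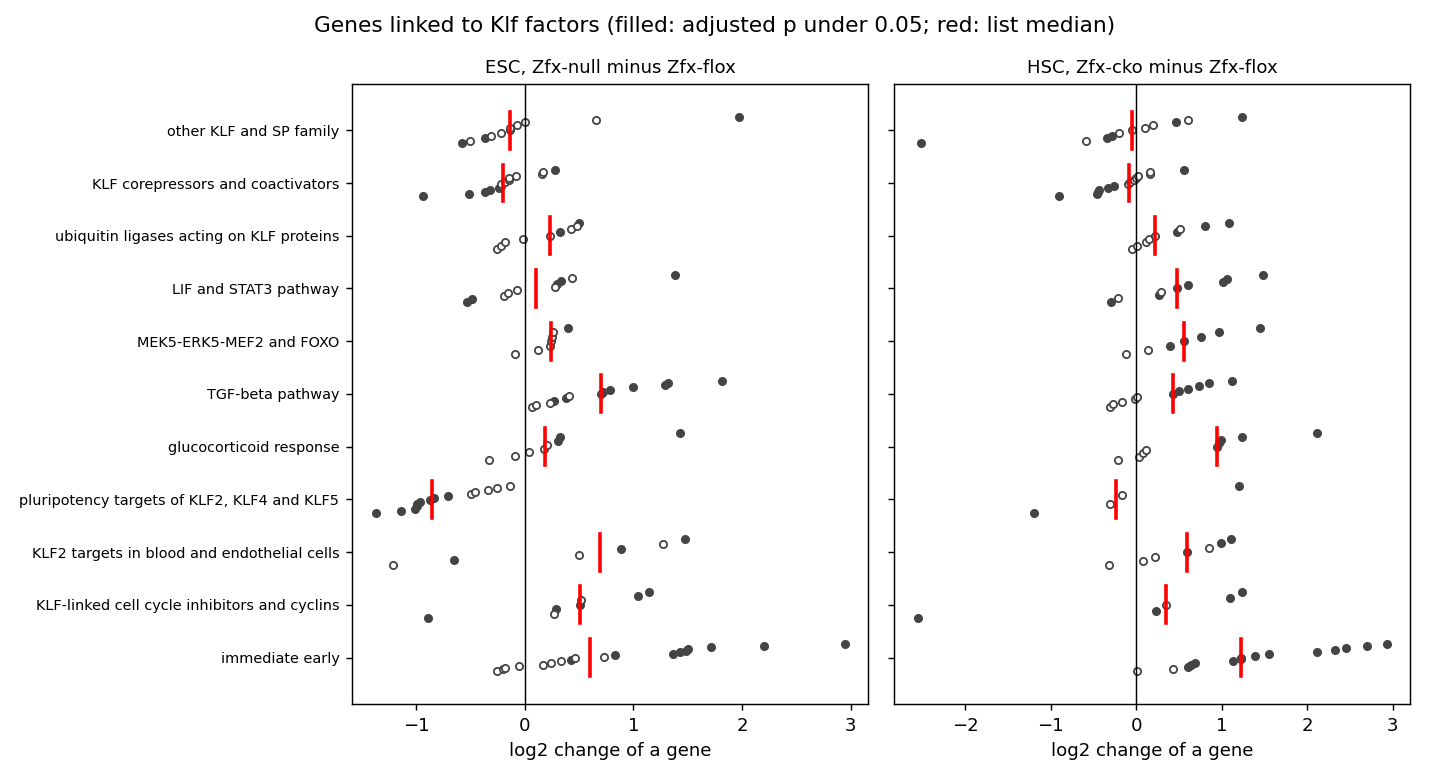
Log2 change of the leading probe set of each tested gene, by list, in ESC (left) and HSC (right), from 2 arrays per group on the log2(value + 14.2) scale. Filled points had a limma adjusted p under 0.05 and red bars are list medians; the ESC median of the pluripotency targets is -0.86, and the immediate early genes have medians of 0.60 in ESC and 1.23 in HSC.

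For each member, the genes with the most similar pattern were taken as those with the highest Pearson r over the 8 arrays, after the mean of each cell type was subtracted, among 11166 leading probe sets. With the best of so many candidates chosen, high r is built in, the arrays share groups, and the values are descriptions. Nearest to Klf6 was Pstpip1, an adaptor of the cytoskeleton (r = 0.9989), followed by Mbnl2 and Ccng2. Nearest to Klf7 was the receptor gene Lpar6 (0.9991), followed by Klhl28 and S100a6. Klf9 was followed most closely by Mrpl42 (0.9967), Sephs2 and the centromere histone gene Cenpa. Klf3 lay nearest to Pawr (0.9969), Rexo2 and Golm1. Klf4 lay nearest to 1500009L16Rik (0.9968), Klhl17 and the kinase gene Pim3, which is also on the LIF list. Klf2 lay nearest to Racgap1 (0.9928), Pald1 and Stmn1. Klf10 lay nearest to Crlf2 (0.9938), Pdzk1ip1 and Dst, Klf13 to Wdr81 (0.9839), Mfsd11 and Kcnmb4, and Klf5 to Slc34a2 (0.98), Nacad and 6530409C15Rik.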

How the data were processed

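RNA of 4 groups of 2 arrays was measured. The deposited values are linear intensities per probe set that the authors made; the submitters' processing notes name GCOS 1.4. The sources used here do not give how GCOS summarised the probes. The mean after trimming 2% at each end was the same on all arrays, so that scaling was kept. Each column was matched to its sample by label, and 0 columns were left without one. Arrays give no counts, and their number limits the precision.

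A model of the 4 group means was fitted to log2(value + 14.2) over 8 arrays by limma (version 3.58.1, R 4.3.3) with an eBayes variance trend and 4 residual degrees of freedom. The script was tested on simulated data. The pseudocount is the 25th percentile of all values and lowers the fold changes of dim genes. The 64 control probe sets were left out. Probe sets with a mean at or over the 40th percentile in a cell type were tested there, 27022 in each and 22829 for the difference, with Benjamini-Hochberg adjustment over all of them and a threshold of 0.05.

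Of the probe sets, 34945 had 1 gene symbol, 932 several and 9160 none, by the platform annotation. Every probe set of a member was named. List genes named are up to 4 past the threshold with the largest change in a comparison and up to 2 others with the highest level, and 3 most similar genes are named per member. Sin3a and Sox2 fall outside this rule and were chosen after their values were seen. Members and lists were chosen with earlier results of these data known. Alternatives covered pseudocount, filter, normalization, variance model, 1 probe set per gene, the replicate block and leaving out each array, for the members alone. Promoters came from RefSeq (GRCm38.p6), and 7 of 9 members matched.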

Additional observations from a re-analysis of the deposited data

Results flagged for a closer look

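The following probe sets are listed because the change with genotype differed between HSC and ESC by the interaction term of limma (HSC log2 change minus ESC log2 change). The difference was 2.43 for Klf4 1417394_at, 1.52 for Klf4 1417395_at, 1.65 for Klf2 1448890_at, 0.89 for Klf6 1447448_s_at, 0.68 for Klf6 1433508_at, 0.60 for Klf7 1449439_at, 0.50 for Klf10 1416029_at and 0.33 for Klf9 1428289_at. It was -1.55 for Klf3 1454666_at and -0.71 for Klf3 1429360_at. Amplification differed between the cell types, and its part in these differences was not tested. Groups of 2 arrays are too small for a test of outlying arrays.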

How the results depend on the processing

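No called member value changed sign under any alternative run. Of the 43 called member values, 26 were called under every alternative that tested them, and of the 40 values not called, 32 were not called under any. With 1 leading probe set per gene, 7 of the 9 members passed in ESC, 7 in HSC and 6 for the difference, against 16, 17 and 10 probe sets, since only 9 member probe sets were then tested. Leaving out 1 array at a time, where the lone array is assumed to vary like the other groups, gave 8 to 15 member calls in ESC, 14 to 17 in HSC and 6 to 10 for the difference. The labels used here do not state whether same-numbered arrays were handled together. The correlation of their deviations was 0.319 in ESC and 0.0716 in HSC. With the replicate number as a block, 16 member probe sets passed in ESC, 17 in HSC and 12 for the difference. Other settings gave 11 to 17 in ESC, 14 to 17 in HSC and 8 to 12 for the difference. The limits lie in 2 arrays per group and in dim probe sets: of the 33 member probe sets, 4 in ESC and 5 in HSC were too dim to be tested, while every member gene had at least 1 tested in each cell type.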

Other observations

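Other genes of the KLF and SP family were also examined. Of 11 tested in ESC, 1 rose and 2 fell, and of 11 tested in HSC, 2 rose and 3 fell. Over all leading probe sets 29.4% passed in ESC and 42% in HSC. The family's counts lie near these shares and are no result about the family. Klf1, the factor of red cell development, read 1874 and 1974 in HSC Zfx-flox, against 319 and 330 in Zfx-cko, a fall of 2.52 ± 0.20 on the log2 scale (limma, SE), next to the fall of the other erythroid markers. Klf12, a CtBP-binding repressor like Klf3, read 120 and 136 against 74.5 and 88.0 in ESC, and in HSC 59.0 and 76.0 against 193 and 163. It fell by 0.57 ± 0.18 in ESC and rose by 1.24 ± 0.18 in HSC, while Klf3 fell in HSC. Klf11, which like Klf10 recruits SIN3A, read 419 and 404 against 412 and 411 in ESC, and rose by 0.46 ± 0.11 in HSC, from 552 and 511 to 830 and 654. Sp8, a factor of limb and brain development, read 24.7 and 35.3 in ESC Zfx-flox and 158 on both Zfx-null arrays, a rise of 1.97 ± 0.22, and 12.3 to 18.2 in HSC, where it was not tested. Sp1, the broadly expressed GC box factor, fell by 0.36 ± 0.05 in ESC and read 6869 and 6920 against 7218 and 7590 in HSC. Klf16 and Sp3 fell by 0.34 ± 0.11 and 0.29 ± 0.09 in HSC.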
